A study of Mus musculus with 16 samples.

Results

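The genes described here are the long non-coding RNA genes of mouse liver that carry an Ensembl annotation. They were selected on their level. Transcripts with an Ensembl mouse ID were summed per gene of GENCODE release M21, and a gene was kept when its summed FPKM reached 1 in at least 4 of the 16 libraries. FPKM is a fragment count divided by transcript length and by library size. Of 5270 Ensembl genes in the files, 897 (17.02%) were kept, and they made up 12.1% of the 7413 features (genes and unannotated transcripts) that passed the same threshold. Because the rule uses the level, which genes reached 1 FPKM is a description. The rule did not use the diet groups, and 381 of the 897 reached 1 FPKM in all 16 libraries. A further 2 reached it in ordinary-feed libraries only, and for these the choice itself favours a lower value on high fat. Likewise, a gene under 1 FPKM throughout 1 group was kept through the other groups. For such a gene the choice favours a lower value in that group.

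Long non-coding RNAs are transcripts without an evident protein product. Some are spliced and polyadenylated like messenger RNAs and lie between genes (lincRNAs) or on the opposite strand of a coding gene (antisense RNAs), where a few are known to act on the neighbouring gene or on chromatin. GENCODE also annotates stretches within introns of coding genes, as sense-intronic RNAs or as TEC loci, a class held for experimental follow-up, and such stretches are also part of the unspliced precursor RNA of the host gene. Pseudogenes are decayed copies of coding genes, and short structured RNAs such as 7SL and the RNA parts of RNase P and RNase MRP are made by RNA polymerase III and act in protein targeting and RNA processing.

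Livers of C57BL/6J wild-type mice were studied in 4 diet groups of 4 libraries. The feed-only groups received ordinary or high-fat feed. The drug groups ate high-fat feed and received by gavage either resveratrol, a plant polyphenol, at 100 mg/kg per day or metformin, which lowers blood glucose, at 200 mg/kg per day. No genetic change is labelled in any group, and the labels do not mention a vehicle gavage for the feed-only groups. The age label is postnatal day 21, without saying whether feeding began or tissue was taken then. Sex is not labelled. The p-values below measure the spread between these libraries only.

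Library totals ran from 17.2 to 31.1 M reads (M stands for mega), and the genes' reads averaged 55.9 per library at the median gene, with 12.1 at the 10th percentile and 235 at the 90th. High-fat library 4 stood apart. Its median ratio to the geometric mean of all 16 libraries was 0.691, against 0.885 to 1.15 elsewhere. The ratio was taken over the tested features above 0 in every library. Only 548 of the 897 genes reached 1 FPKM in high-fat library 4, against 645 to 762 in the others. In that library 78.2% of the reads on listed transcripts fell on the 897 genes, against 58.5% to 70.2% in the rest. The class that holds 7SL (misc_RNA) took most of them, at 56.7%, but took 57.2% in high-fat library 2 as well. LincRNAs took 17.6% in library 4, against 7.38% to 12.5% in the other libraries. Of their summed 15203 FPKM in library 4, Gm26917 held 9138 FPKM and Gm42418 held 5608 FPKM. The class as a whole was not raised there, since 83 of 122 lincRNAs reached 1 FPKM, against 89 to 106 in the other libraries. Counts are therefore given as fitted, after median-ratio scaling (each library divided by its median ratio), and without that library. The titles of the high-fat libraries share a prefix that the other groups do not share in full. Should that prefix stand for a shared cage, cage and high-fat feeding cannot be told apart.

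The label holds for most but not all of these genes. GENCODE M21 gives 708 of the 897 (78.9%) a long non-coding biotype, of which 332 were TEC, 122 lincRNA, 102 antisense, 77 sense-intronic and 64 processed-transcript genes, with 10 at bidirectional promoters and 1 sense-overlapping. Another 147 were pseudogenes, 108 of them processed pseudogenes. Small structured RNA genes numbered 41, and 1 gene is annotated as protein-coding. By position, 456 (50.8%) lay within a coding gene on its own strand without sharing an exon, 236 lay outside coding genes, 172 lay on the opposite strand of a coding gene and 33 shared an exon with one on its strand. The counting's use of strand was not given in the sources used here, and reads of genes that overlap on opposite strands may be mixed.

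The sequences that bear on what was measured are the ends of the transcripts and the copies that share reads. Each of the following is the last 50 bases of a transcript in GENCODE M21 (GRCm38), 5′ to 3′ on the transcript's strand, with a polyadenylation-signal hexamer in capitals where there is one. They are shown as examples with and without the hexamer, from genes that recur in the results. Other recurring genes go the other way. The intronic TEC locus Gm43314 has a hexamer, and the lincRNA 1810058I24Rik and the antisense RNAs Gm15441, Gm11832 and Gm11963 have none. The lincRNA Gm15835 lies at chr16:4777743-4779454 (+), opposite Cdip1. The antisense RNA 1700018L02Rik lies at chr19:29046245-29048729 (+), opposite Ak3, and its transcript of 2485 nt covers that whole span without an intron. The 2 intronic loci are Gm29438 at chr6:72104201-72106813 (+) within St3gal5 and Gm43359 at chr5:122482800-122484999 (-) within Atp2a2.
Gm15835: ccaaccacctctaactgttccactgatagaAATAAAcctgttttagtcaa
1700018L02Rik: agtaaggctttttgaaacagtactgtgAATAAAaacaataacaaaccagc
Gm29438: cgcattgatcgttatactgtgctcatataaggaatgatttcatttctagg
Gm43359: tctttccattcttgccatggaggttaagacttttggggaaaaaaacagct

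The letters AATAAA or ATTAAA, searched on the transcript's strand only and counted once when they overlap, occurred in the last 50 bases of 61 of 122 lincRNAs and 35 of 64 processed transcripts (54.7%). They occurred in 36 of 102 antisense genes (35.3%), 21 of 77 sense-intronic genes (27.3%) and 73 of 332 TEC genes (22.0%). Grouped by position, 80 of the 378 long non-coding genes within a coding gene on its strand held them (21.2%), against 153 of the other 330 (46.4%). No processed pseudogene did (0 of 108). A match is a run of letters and not a mapped end. TEC genes all had 1 exon and a median length of 2098 nt, and 59.7% of sense-intronic genes had 1 exon. LincRNAs had a median of 3 exons and 1685 nt, and processed transcripts a median of 4 exons and 2646 nt.

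Levels were low in the long non-coding classes. The median of the genes' mean FPKM over the 16 libraries was 1.65, with 1.84 for lincRNAs, 1.48 for TEC and 1.42 for sense-intronic genes, against 5.05 for the small structured RNAs. Above these medians stood a few abundant genes. Gm47544, an antisense RNA at Apoa5 (the apolipoprotein that promotes triglyceride clearance), averaged 50.1 FPKM. The antisense RNA 0610005C13Rik at Bcat2 averaged 36.9 FPKM. Neither passed the test between high fat and ordinary feed (limma adjusted p = 0.451 for Gm47544 and 0.515 for 0610005C13Rik). The lincRNA AW112010, known from immune cells, averaged 33.5 FPKM. Gm45909, within Ces1d, led the TEC genes at 10.9 FPKM, and the pseudogene-derived Rpl37rt reached 142 FPKM.

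High fat against ordinary feed asks which of these RNAs differ with the diet. On high fat 97 of the 897 genes were lower and 24 higher by limma at a Benjamini-Hochberg adjusted p under 0.05, so that 80.2% of the calls were lower. Among all features tested 11.8% were called lower and 2.83% higher, against 10.8% and 2.68% of these genes, so their shares were near the background. The median log2 fold change was -0.14 over these genes and -0.16 over all features tested. All fold changes are on the log2(FPKM + 1) scale, which understates changes of low genes. For 35 genes all high-fat values lay above the ordinary-feed values and for 141 all lay below, together 19.6%, against 20.9% of all features.

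The direction of the calls moved with the scaling. After median-ratio scaling 53 genes were higher and 47 lower, with a median of 0.03, against 6.03% higher and 4.94% lower of all features tested. Without high-fat library 4 18 were higher and 53 lower (2.01% and 5.91%), and with both changes 29 were higher and 27 lower (3.23% and 3.01%). Over all 7413 features tested the calls were 183 higher and 422 lower without that library, and 311 higher and 220 lower with both changes. Of the 24 higher genes 23 were also called higher after median-ratio scaling, and of the 97 lower genes 47 were called lower. Calls made under every alternative tried numbered 6 higher and 14 lower genes. In bulk liver, fewer cells of a type and less RNA per cell cannot be told apart.

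**Figure D1:**
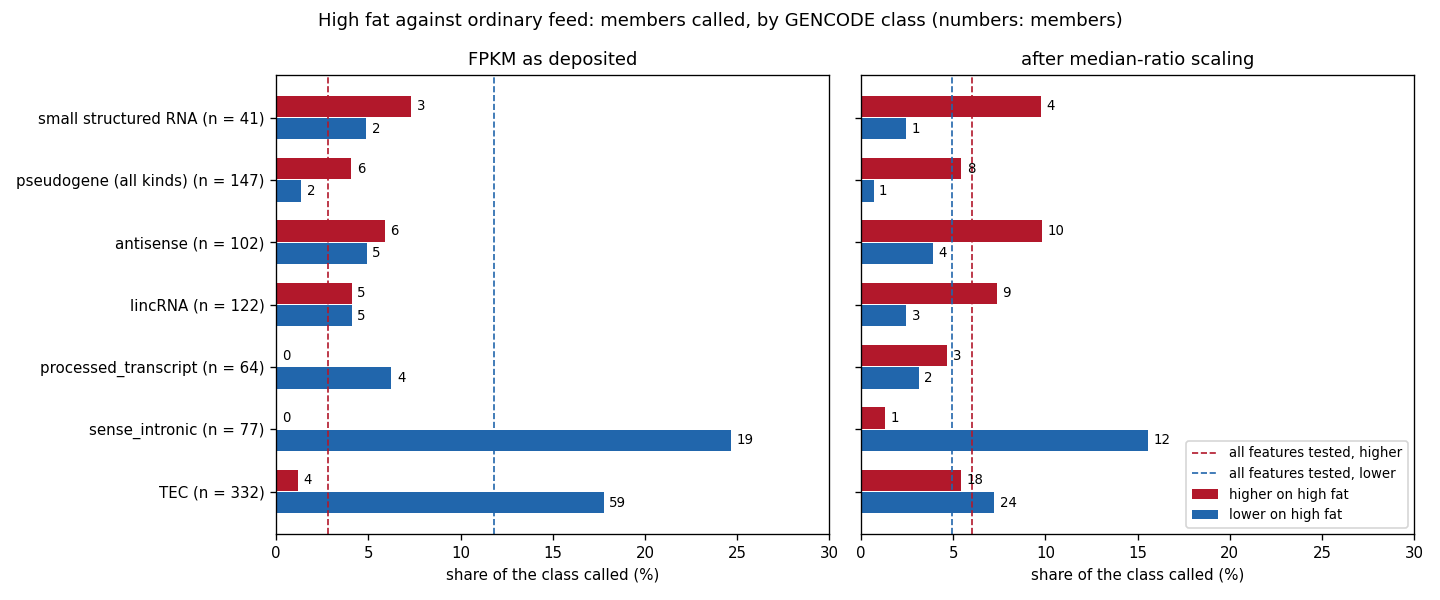
Share of each GENCODE class called higher (red bars) or lower (blue bars) on high fat than on ordinary feed, in percent, with FPKM as deposited (left) and after median-ratio scaling (right). Numbers beside the bars are genes, and dashed lines are the shares over all features tested. TEC and sense-intronic genes hold 78 of the 97 lower calls, and scaling moves TEC genes from 4 higher and 59 lower to 18 and 24.

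By class, TEC genes had 59 lower and 4 higher calls of 332 and sense-intronic genes 19 lower and 0 higher of 77. The lower shares were 17.8% and 24.7%, against 11.8% of all features tested, of which 2.83% were called higher. LincRNAs had 5 in each direction of 122, antisense genes 6 higher and 5 lower of 102, and processed transcripts 0 higher and 4 lower of 64. Pseudogenes had 6 higher and 2 lower calls of 147. After median-ratio scaling the counts were 18 higher and 24 lower for TEC, 1 and 12 for sense-intronic, 9 and 3 for lincRNA, 10 and 4 for antisense and 8 and 1 for pseudogenes. Scaled shares over all features tested were 6.03% higher and 4.94% lower. TEC genes were near these at 5.42% and 7.23%, and sense-intronic genes stood at 1.30% and 15.6%. The class medians were -0.24 for TEC and -0.26 for sense-intronic genes as fitted and -0.08 and -0.10 after scaling, while lincRNAs moved from -0.05 to 0.13 and antisense genes from 0.06 to 0.21. Without high-fat library 4 TEC genes had 28 lower and 4 higher calls and sense-intronic genes 12 lower and 0 higher. With scaling and without that library these were 13 lower and 12 higher for TEC and 6 lower and 1 higher for sense-intronic genes. Over all 7413 features tested there were 422 lower and 183 higher calls without that library, and 220 lower and 311 higher with scaling as well. Classes were not compared with each other by a test.

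The same calls were counted by position, without a test between positions. Genes within a coding gene on its strand without a shared exon had 76 lower and 5 higher calls of 456. That was 16.7% lower and 1.10% higher, against 11.8% and 2.83% of all features tested. Genes outside coding genes had 8 lower and 12 higher of 236, and genes on the opposite strand 8 lower and 6 higher of 172. Scaling changed these to 37 lower and 20 higher, 3 lower and 16 higher, and 5 lower and 15 higher. All features tested then had 4.94% lower and 6.03% higher calls. Without high-fat library 4 42 lower and 4 higher calls were left for genes within a coding gene on its strand, and 22 lower and 12 higher with scaling as well. The counts over all features in these settings are given above. In the 4 high-fat libraries the median deviation of the genes in that position from their mean over all libraries ran from -0.33 to 0.02 on the log2(FPKM + 1) scale, with the lowest in library 4, and in the ordinary-feed libraries from 0.07 to 0.15. All features tested ran from -0.31 to 0.03 and from 0.05 to 0.10 in the same libraries.

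**Figure D2:**
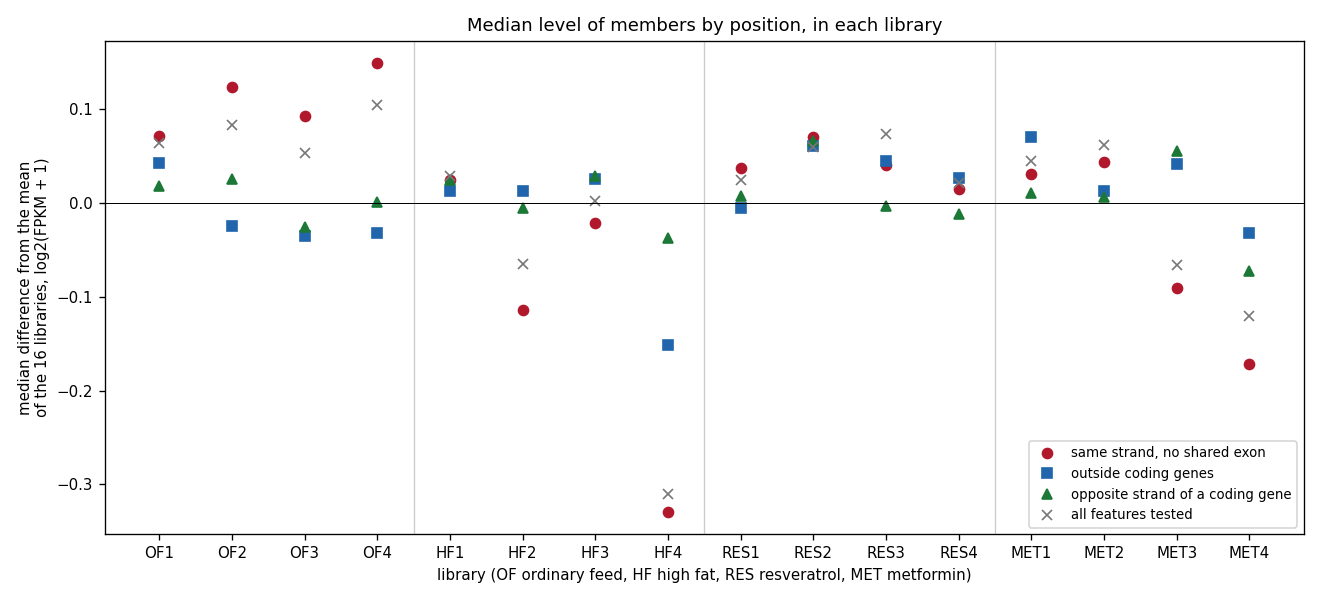
Median deviation of the genes in each position class from their 16-library mean, on the log2(FPKM + 1) scale, with 1 point per library, libraries grouped by diet and crosses for all features tested. Genes within a coding gene on its strand run from 0.07 to 0.15 on ordinary feed and from -0.33 to 0.02 on high fat, where library 4 is lowest.

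These intronic loci can share a host. They lay in 348 coding genes, of which 68 held 2 or more of them (176 genes, up to 8 in Rabgap1l). In 49 of those 68 hosts every locus had a fold change below 0, in 8 every locus was above 0, and 11 were mixed. The median over all 456 such loci was itself below 0, at -0.21 as fitted and -0.04 after median-ratio scaling. Over all features tested it was -0.16 as fitted. The host counts are therefore a description and do not show agreement within hosts. At least 2 loci were called in 7 hosts, all of them lower, among them 3 of 3 in Plxna2, 2 of 2 in each of Atp2a2, Pik3c2a, Snrk and Tmem131, and 2 of 7 in Magi3. No host held calls in both directions, an outcome nearly fixed by the 5 higher calls among the 456 loci. Loci in 1 host are not independent of each other, and the level of the coding gene itself was not analysed here. In Rabgap1l the 8 loci had log2 fold changes between -0.33 and -0.13 and none was called.

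Gm29438 is a single-exon TEC locus in an intron of St3gal5, which encodes the enzyme that makes the ganglioside GM3. Its values were 4.61, 9.05, 6.56 and 6.54 FPKM on ordinary feed and 2.30, 1.62, 1.69 and 1.06 on high fat, so the groups did not overlap. It fell by 1.52 ± 0.18 (SE) on the log2(FPKM + 1) scale (limma adjusted p = 0.000592), the smallest adjusted p of the 897 genes. Resveratrol-treated livers held 2.96 ± 0.54 FPKM and metformin-treated livers 2.42 ± 0.47 (SD, n = 4 each).

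Atp2a2 encodes the calcium pump of the endoplasmic reticulum. Within it Gm43359 measured 8.27, 11.5, 10.9 and 13.3 FPKM on ordinary feed against 5.98, 4.12, 4.61 and 3.34 on high fat, without overlap, and fell by 1.13 ± 0.22 (limma adjusted p = 0.00858). Gm43360 in the same host measured 5.48 to 7.71 FPKM against 2.47 to 4.95 and fell by 0.85 (limma adjusted p = 0.0339). That call of Gm43360 ended after median-ratio scaling (adjusted p = 0.0928), under quantile normalization and on leaving out library 2, 3 or 4 of either group (0.0793 without high-fat library 4).

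Gm43314 lies at chr3:157894961-157897191 (-) within Cth, which encodes cystathionine gamma-lyase of the transsulfuration pathway. Its values were 7.43, 4.54, 2.54 and 9.48 FPKM on ordinary feed and 1.64, 1.44, 1.59 and 1.04 on high fat. The ordinary-feed libraries spread widely but all lay above the high-fat ones, and it fell by 1.42 ± 0.33 (limma adjusted p = 0.0154). Its adjusted p was 0.0572 with median-ratio scaling and without high-fat library 4 together. With either drug it stood at 5.52 ± 2.7 FPKM (resveratrol) and 4.18 ± 1.3 FPKM (metformin), values that are not called against high fat.

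Gm38357, within Noct (the gene of nocturnin, a rhythmically expressed phosphatase), measured 6.07, 8.73, 8.06 and 23.7 FPKM on ordinary feed and 4.60, 2.09, 3.00 and 2.70 on high fat. Ordinary-feed library 4 was far above the rest. It fell by 1.48 ± 0.46 (limma adjusted p = 0.0451), a call that ended after median-ratio scaling (adjusted p = 0.102), under quantile normalization (0.0750) and on leaving out any of 6 libraries (0.0683 to 0.122), namely libraries 2, 3 and 4 of each group.

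Genes called lower under every alternative tried were 14, and 5 of them are named here beyond the rule, after their values were seen. Gm48372, a TEC locus in Fgd6, the gene of a regulator of the small GTPase Cdc42, measured 3.62, 3.68, 4.46 and 4.34 FPKM on ordinary feed and 2.41, 2.02, 2.39 and 1.57 on high fat, and fell by 0.70 ± 0.12 (limma adjusted p = 0.00351). Gm15859, annotated as antisense but lying within Hmox2 (the constitutive heme oxygenase gene) on its strand, measured 2.17 to 2.63 FPKM against 0.801 to 1.24 and fell by 0.73 (limma adjusted p = 0.00437). Both sets of values were tight and apart. Gm17229, a transcribed pseudogene in Pde7b, fell from 1.99 ± 0.20 to 0.961 ± 0.27 FPKM, and Gm42659, in the actin-capping gene Capza1, from 1.73 ± 0.097 to 0.873 ± 0.27 FPKM (SD, n = 4 each). The lincRNA Gm26853 on chromosome 8 was the member of the 14 that lies outside coding genes, at 1.83 to 2.08 FPKM against 0.705 to 1.29.

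Calls of 4 of the most abundant genes of their biotypes ended when a library was left out. Gm47644 is annotated as sense-intronic and lies opposite Pln, which encodes phospholamban. It measured 6.31, 12.2, 7.62 and 9.93 FPKM on ordinary feed and 6.44, 3.47, 4.29 and 3.14 on high fat, overlapping by 1 library. It fell by 0.91 (limma adjusted p = 0.0301), with 0.0785 after median-ratio scaling and 0.0503 to 0.0849 on leaving out library 2, 3 or 4 of either group. Gm17491, in the phosphate transporter gene Slc20a2, measured 6.80 to 7.74 FPKM against 4.61 to 6.13 and fell by 0.37 (limma adjusted p = 0.0399), with 0.487 after median-ratio scaling and 0.0574 to 0.0909 on leaving out any library but high-fat library 3. 2810030D12Rik, divergent from Grtp1, measured 3.05 to 4.41 FPKM against 1.47 to 2.55 and fell by 0.57 (limma adjusted p = 0.0361), with 0.256 after median-ratio scaling and 0.0509 to 0.0862 on leaving out any library but ordinary-feed library 3. In the other direction Gm37729, within the antithrombin gene Serpinc1, measured 6.27 to 8.46 FPKM against 10.3 to 13.3 and rose by 0.59 (limma adjusted p = 0.0421), or 0.0198 after median-ratio scaling. Leaving out any single library of the groups gave Gm37729 an adjusted p of 0.0514 to 0.101.

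**Figure D3:**
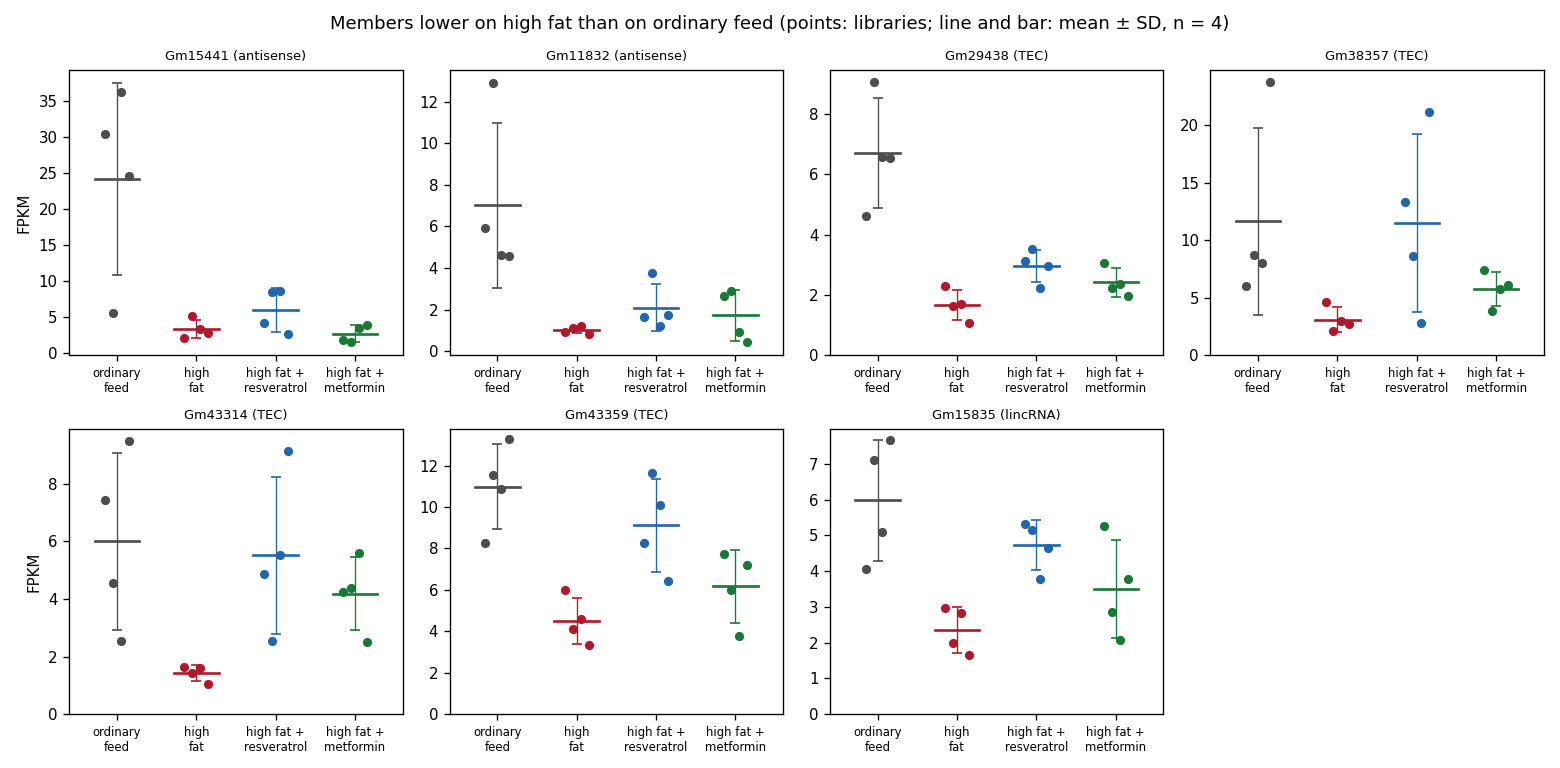
FPKM by library for 7 genes that were lower on high fat, 1 panel per gene on its own linear scale, with 4 points per diet group and a line and bar for the mean ± SD. In each panel the 4 high-fat points lie below the 4 ordinary-feed points.

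Antisense genes included the largest decreases. Gm15441 lies at chr3:96555765-96566801 (-), opposite Txnip, which encodes a thioredoxin-binding inhibitor of glucose uptake, and Gm15441 is known from fasted liver. It measured 30.3, 5.54, 36.2 and 24.5 FPKM on ordinary feed and 2.16, 5.11, 3.39 and 2.85 on high fat. Ordinary-feed library 2 came close to the highest high-fat one, and the other 3 were well apart. It fell by 2.30 ± 0.47 (limma adjusted p = 0.00926), with group means of 24.2 and 3.38 FPKM.

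Gm11832, at chr4:11611139-11615007 (-) and opposite Rad54b, a gene of homologous recombination, measured 5.90, 12.9, 4.63 and 4.60 FPKM on ordinary feed. On high fat it measured 0.919, 1.12, 1.22 and 0.844. It fell by 1.88 ± 0.35 (limma adjusted p = 0.00598), without overlap, but rests on 29 reads per library on average. Gm15835, opposite the p53 target gene Cdip1, measured 4.07, 7.12, 5.08 and 7.67 FPKM against 2.97, 1.99, 2.83 and 1.66 and fell by 1.04 ± 0.22 (limma adjusted p = 0.0117).

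The pattern across all 16 libraries gave these genes near neighbours among the 897. The closest to Gm15835 was Gm47644, at Pln (Pearson r = 0.96 of log2(FPKM + 1)), and the closest to Gm43359 was Gm44200 (r = 0.94). These libraries share their diet groups and their scaling, so the likeness is a description only.

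Of the 24 genes that rose on high fat 12 lay outside coding genes, and 6 were pseudogenes. 1810058I24Rik, at chr6:35252654-35263496 (+), is annotated here as a lincRNA and is known to encode the mitochondrial micropeptide mitoregulin, which acts in fatty acid oxidation. It measured 14.0, 11.7, 13.7 and 20.04 FPKM on ordinary feed and 42.4, 33.8, 32.2 and 37.3 on high fat. The groups were far apart, and it rose by 1.26 ± 0.20 (limma adjusted p = 0.00301), by 1.53 after median-ratio scaling and by 1.24 without high-fat library 4. With resveratrol it measured 27.1 ± 1.9 FPKM and with metformin 28.4 ± 7.1 FPKM (SD, n = 4 each), between the feed-only groups. Neither of these values was called against ordinary feed (limma adjusted p = 0.0861 and 0.0611) or against high fat.

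1700018L02Rik, opposite the mitochondrial adenylate kinase gene Ak3, measured 1.28, 1.27, 0.690 and 0.380 FPKM on ordinary feed and 2.25, 2.35, 2.89 and 4.11 on high fat, and rose by 1.04 ± 0.22 (limma adjusted p = 0.00986). Gm27216, a lincRNA with 5 exons, measured 0.900 to 1.93 FPKM against 2.75 to 5.63 and rose by 1.13 ± 0.24 (limma adjusted p = 0.0117). Gm11963, near the gene of the stress-response factor Xbp1, measured 0.397 to 1.05 FPKM against 2.06 to 6.20, where the highest value was that of high-fat library 4. It rose by 1.17 ± 0.24 (limma adjusted p = 0.0091) and by 0.89 without that library, where the call was kept. Gm27216 and Gm11963 rest on 28 and 22 reads per library on average.

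Gm37940, a TEC locus within Snd1, was the steadiest of the intronic risers, at 1.62 to 1.87 FPKM against 3.18 to 4.15. It was named after its values were seen, as 1 of the 6 higher genes called under every alternative, and rose by 0.70 ± 0.13 (limma adjusted p = 0.00580).

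**Figure D4:**
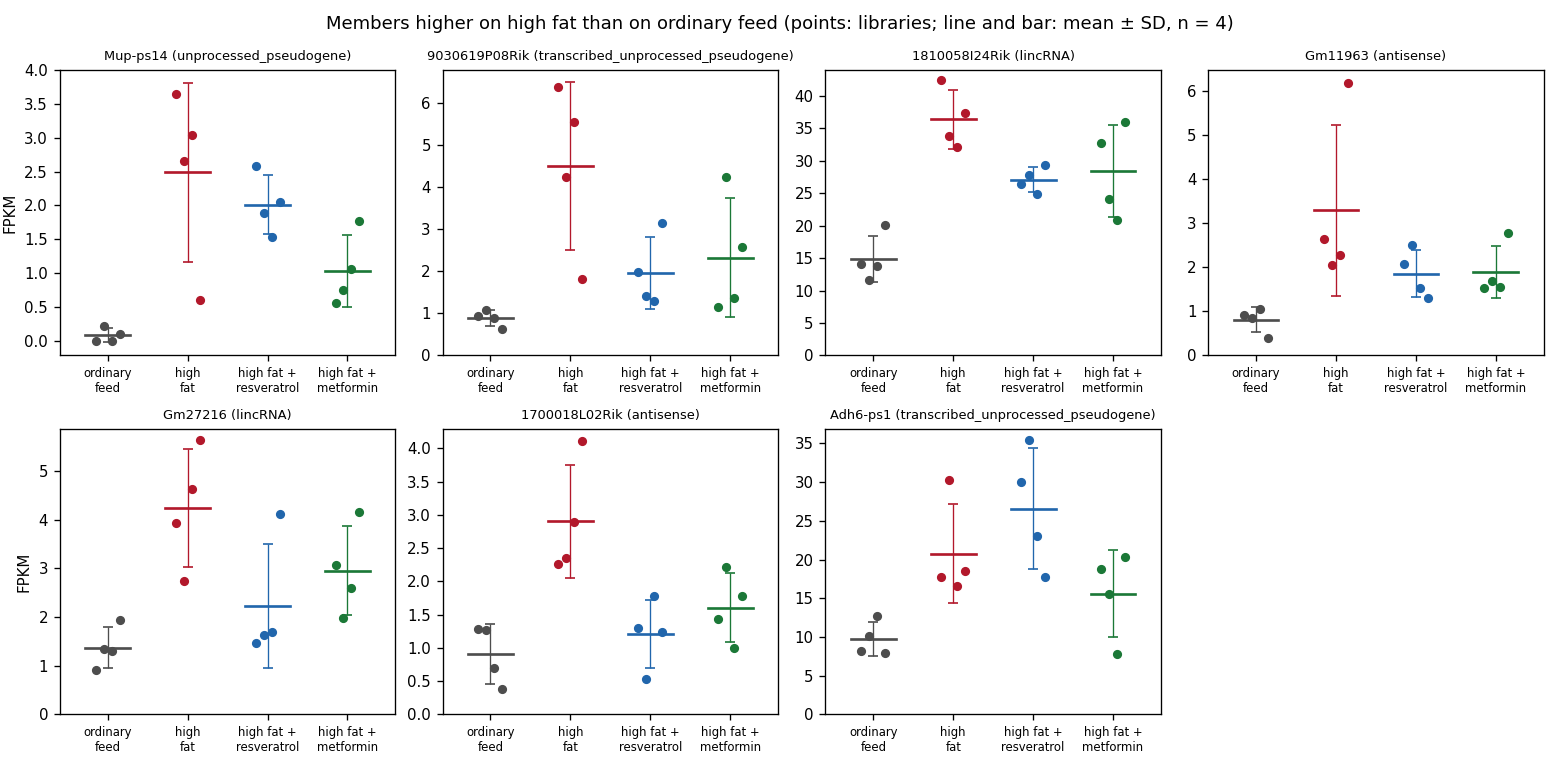
FPKM by library for 7 genes that were higher on high fat, 1 panel per gene on its own linear scale, with 4 points per diet group and a line and bar for the mean ± SD. In each panel the 4 high-fat points lie above the 4 ordinary-feed points, and high-fat library 4 is the lowest of its group for Mup-ps14 and 9030619P08Rik.

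Pseudogenes raise the question of where their reads come from, since reads of a copy and of its source gene can be shared. Of the 108 processed pseudogenes 83 (76.9%) had at least 90% identity over at least 50% of their length to a transcript of a coding gene elsewhere, with a median identity of 97.8%, and 9 of them were identical. Ribosomal protein genes were the source of 20. None of the 409 TEC and sense-intronic genes met that criterion. The values of such copies are uncertain, because the authors' counting could split or move reads between them.

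The major urinary protein (Mup) genes encode pheromone-binding lipocalins that liver secretes in quantity, and their cluster on chromosome 4 holds many pseudogenes. The stretches below, 120 bases of 2 of these pseudogene transcripts, are shown with capitals at the bases that differ from Mup6, the closest coding transcript, 12 in each. Mup-ps14 lies at chr4:61608292-61610983 (+) and Mup-ps12 at chr4:61452244-61454952 (+). The stretch of Rpl37rt at chr5:115102923-115110268 (-), has no base that differs from the ribosomal protein gene Rpl37, and so no capitals.
Mup-ps14: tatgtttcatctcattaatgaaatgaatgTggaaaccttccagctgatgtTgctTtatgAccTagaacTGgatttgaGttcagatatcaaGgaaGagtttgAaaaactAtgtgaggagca
Mup-ps12: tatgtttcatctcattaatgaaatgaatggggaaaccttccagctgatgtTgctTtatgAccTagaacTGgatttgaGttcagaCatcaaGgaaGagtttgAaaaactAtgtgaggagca
Rpl37rt: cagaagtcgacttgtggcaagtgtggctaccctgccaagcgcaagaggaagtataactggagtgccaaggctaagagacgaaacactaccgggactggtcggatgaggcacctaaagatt

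Mup-ps14 was listed at 0, 0.220, 0 and 0.0934 FPKM on ordinary feed and measured 3.65, 2.66, 3.04 and 0.600 on high fat. All 4 high-fat libraries lay above, library 4 by least, and it rose by 1.59 ± 0.27 (limma adjusted p = 0.0043), a fitted value that depends on the pseudocount. No ordinary-feed library reached 1 FPKM, so Mup-ps14 was kept through high-fat-fed libraries only, and that choice favours a rise. Resveratrol-treated livers held 2.01 ± 0.43 FPKM and metformin-treated livers 1.04 ± 0.53 (SD, n = 4 each). Of 7 genes with a Mup transcript as their closest match, at 89.6% to 95.0% identity, 3 rose (Mup-ps14, Mup-ps12 and Mup-ps7), and all 7 fold changes were above 0, from 0.37 to 1.59. Mup-ps12 and Mup-ps7 averaged only 1.35 and 0.872 FPKM over the 16 libraries, near the threshold of the rule. The same choice may favour a rise for others of the 7, and these copies may share reads. Their common sign is therefore a description and adds no support. The call of Mup-ps12 (limma adjusted p = 0.0278) ended on leaving out high-fat library 1 or 3 or ordinary-feed library 3 or 4. That of Mup-ps7 (0.0320) ended on leaving out any library of the pair of groups but high-fat library 4, while Mup-ps14 was called under every alternative tried. Mup-ps14 rests on 17 reads per library on average, and part of the reads of these genes may belong to coding Mup transcripts, which was not tested.

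9030619P08Rik, a transcribed pseudogene whose closest coding match is Ly6c1 at 80.4% identity, measured 0.638 to 1.09 FPKM on ordinary feed and 6.38, 4.24, 5.57 and 1.81 on high fat. It rose by 1.46 ± 0.31 (limma adjusted p = 0.0115). Adh6-ps1, in the alcohol dehydrogenase cluster, measured 8.17, 10.1, 12.7 and 7.98 FPKM against 17.7, 30.3, 16.6 and 18.5 and rose by 1.00 ± 0.30 (limma adjusted p = 0.0365). The call ended on leaving out high-fat library 2 or 4 or ordinary-feed library 1, 2 or 4 (adjusted p 0.0598 to 0.097). It measured 26.6 ± 7.8 FPKM with resveratrol. The most abundant processed pseudogene was not called: Gm8430, a copy of Rps27a, measured 135 ± 11 FPKM on ordinary feed and 126 ± 24 on high fat (limma adjusted p = 0.657).

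The structured RNAs dominated the reads. 7SL, the RNA of the signal recognition particle, is listed as Rn7s1 and Rn7s2, and the 300-nt transcripts of both are the same, with 0 differing positions, so that reads cannot be assigned between the copies by sequence. Rn7s1 measured 248827, 195186, 202093 and 180857 FPKM on ordinary feed and 241051, 309061, 262834 and 361688 on high fat. Ordinary-feed library 1 lay above the lowest high-fat library, and high-fat library 4 was highest. It rose by 0.50 ± 0.13 (limma adjusted p = 0.024), and Rn7s2 rose by 0.42 (limma adjusted p = 0.0372). Although the copies are identical, Rn7s1 was 3.79 to 4.47 times Rn7s2 in every library. Rpph1, the RNA of RNase P, measured 4960 to 6534 FPKM on ordinary feed and 6778, 8513, 7535 and 15062 on high fat and rose by 0.71 (limma adjusted p = 0.0269). For Rn7s1 the adjusted p without high-fat library 4 was 0.0696, and it was 0.0543 to 0.0623 without high-fat library 2 or ordinary-feed library 2, 3 or 4. For Rn7s2 it was 0.0509 to 0.111 without library 2, 3 or 4 of either group, and for Rpph1 0.0538 to 0.0711 without ordinary-feed library 2, 3 or 4. Under quantile normalization, which fixes the top ranks, all 3 had an adjusted p of 1.

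Of the 41 small structured RNA genes 2 further ones were called, both lower and both of the misc_RNA class, and they are named after their values were seen. Gm22146 measured 1.38 to 3.79 FPKM on ordinary feed and 0.158 to 1.06 on high fat and fell by 1.02 (limma adjusted p = 0.0209, and 0.0600 without high-fat library 4). Its call also ended on leaving out high-fat library 2 or ordinary-feed library 2 or 3. Gm22596 measured 0.943 to 1.47 FPKM against 0.415 to 0.577 and fell by 0.50 (limma adjusted p = 0.0159, and 0.102 after median-ratio scaling). They rest on 6.69 and 5.88 reads per library on average. Rmrp, the RNA of RNase MRP, measured 4392 ± 449 FPKM on ordinary feed and 4175 ± 260 on high fat (log2 fold change -0.07, or 0.21 after median-ratio scaling, limma adjusted p = 0.642 and 0.346), and Rn7sk, the inhibitor of the elongation factor P-TEFb, 1451 ± 144 and 1752 ± 253 (0.27, adjusted p = 0.250). The lincRNA entries Gm26917 and Gm42418 on chromosome 17 are known to overlap ribosomal RNA sequence. Gm26917 measured 2916, 3430, 4160 and 9138 FPKM on high fat, with library 4 far above, against 3303 to 4876 on ordinary feed (limma adjusted p = 0.698).

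**Figure D5:**
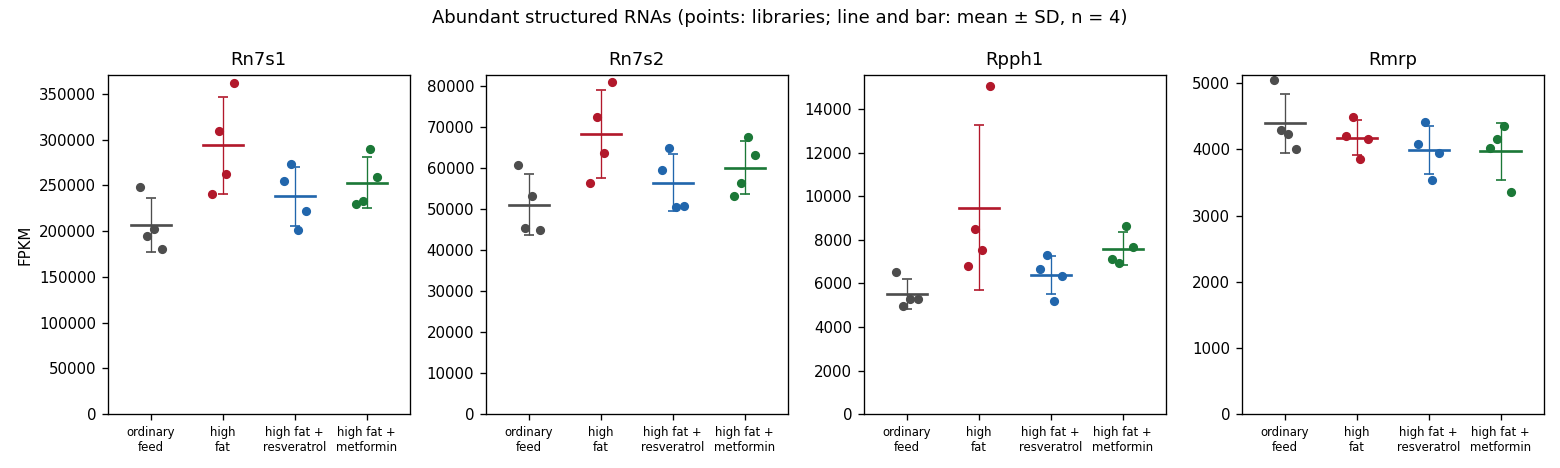
FPKM by library of Rn7s1, Rn7s2, Rpph1 and Rmrp, 1 panel per gene on its own linear scale from 0, with 4 points per diet group and a line and bar for the mean ± SD. High-fat library 4 is the highest of its group for Rn7s1 (361688 FPKM) and Rpph1 (15062 FPKM), while Rmrp runs from 3854 to 4488 FPKM on high fat.

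Well-known long non-coding RNAs were mostly not called. Of 12 measured small nucleolar RNA host genes none was called in either direction (median log2 fold change -0.08). After median-ratio scaling the median was 0.17, and 1 of them, Snhg12, was called higher (limma adjusted p = 0.0472). Gas5, whose introns carry small nucleolar RNAs, measured 26.0 ± 2.0 FPKM on ordinary feed and 23.99 ± 4.0 on high fat (SD, n = 4 each). None of 2 imprinted genes or 5 microRNA host genes was called. The imprinted Kcnq1ot1 is listed at 0 in 10 of 16 libraries, so its lack of a call says little. Over all features tested 11.8% were called lower and 2.83% higher, and at that share lists this short would hold few calls. Dleu2, the host of the miR-15a and miR-16 genes, measured 7.02 ± 1.2 and 10.2 ± 1.3 FPKM (limma adjusted p = 0.0537), and after median-ratio scaling its adjusted p was 0.0303. Mir22hg measured 22.5 ± 4.0 and 15.6 ± 4.5 FPKM (limma adjusted p = 0.117).

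Among 6 nuclear and X-linked RNAs, Jpx, an activator of Xist, was the exception and fell by 0.43 from 3.97 to 2.70 FPKM (limma adjusted p = 0.0346), a call that ended after median-ratio scaling (adjusted p = 0.357). It also ended on leaving out library 1, 2 or 4 of either group (adjusted p 0.0535 to 0.0877). Malat1, a nuclear-speckle RNA, and Neat1, the scaffold of paraspeckles, spread over libraries more than over groups. Malat1 measured 72.1 FPKM in high-fat library 2 and 3.05 to 11.7 in the other 3, with a limma adjusted p of 0.709. Of 9 liver and metabolic RNAs 1 rose and 1 fell (Gm15441), and the 7 growth and stress RNAs had 1 call (Jpx, lower).

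Marker RNAs of other cells were few among these genes. Summed immune-cell markers, nearly all AW112010, measured 19.4 to 30.9 FPKM on ordinary feed and 31.6 to 45.2 on high fat, so the groups did not overlap, and 31.6 to 45.0 and 34.8 to 48.9 with resveratrol and metformin. AW112010 alone had a log2 fold change of 0.60 (limma adjusted p = 0.0537, and 0.0121 after median-ratio scaling). Of the 8 immune markers 4 were listed, and Mir155hg did not exceed 0.130 FPKM in any library. Summed stellate and endothelial markers (5 of 7 listed) measured 0.887 to 3.45 and 1.70 to 2.83 FPKM on ordinary feed and high fat, and hepatocyte markers (6 of 7 listed) 40.6 to 53.6 and 36.7 to 53.6. The fetal marker H19 reached at most 0.218 FPKM, and Xist, the marker of female cells, at most 0.0174 FPKM. The part of immune cells in the results above was not tested.

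Resveratrol on high fat against high fat alone gave no call among the 897 genes by limma, against 0.0809% of all features tested (6). At an unadjusted p under 0.05 there were 114 genes, 99 higher and 15 lower with resveratrol, or 12.7% against 16.2% of all features. The median fold change was 0.10, against 0.13 over all features. Among the genes reported here the smallest adjusted p was 0.0805, for the pseudogene Gm17229, at 2.11, 1.68, 1.91 and 1.53 FPKM with resveratrol against 0.694 to 1.33 on high fat, a log2 difference of 0.52 ± 0.11. Those groups did not overlap. For Gm43314 in Cth the difference was 1.33 ± 0.33 (limma adjusted p = 0.117) and for Gm29438 in St3gal5 0.58 ± 0.18 (0.183). The high-fat libraries are shared with the comparison above, so a low high-fat value alone gives differences of opposite sign in the 2 comparisons.

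Metformin on high fat against high fat alone gave no call either, against 0.027% of all features (2). At an unadjusted p under 0.05 there were 46 genes, 29 higher and 17 lower, or 5.13% against 7.47% of all features, and the smallest adjusted p was 0.278. It was shared by 4930596I21Rik, an intronic locus in Dennd1b (log2 difference -0.45 ± 0.12), and the pseudogene Gm17229 (0.42 ± 0.11), which were named after their values were seen. Resveratrol against metformin gave 0 calls, as for all features (0.0%), and 53 genes at an unadjusted p under 0.05, or 5.91% against 6.35%, with a smallest adjusted p of 0.765. The drugs were given at different doses, and a p above the threshold does not show that they act alike. All the lists above had 0 calls in these 3 comparisons.

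Resveratrol on high fat against ordinary feed gave 2 higher and 2 lower genes, against 0.283% of all features tested. Mup-ps8, a further Mup pseudogene, measured 0.0912 to 0.572 FPKM on ordinary feed and 2.20 to 3.47 with resveratrol and rose by 1.41 ± 0.23 (limma adjusted p = 0.0234), and Mup-ps14 rose by 1.48 ± 0.27 (0.0365). Both were kept through high-fat-fed libraries only, a choice that favours a rise against ordinary feed. Gm29438 fell by 0.94 ± 0.18 (limma adjusted p = 0.0425), and C430039J01Rik, an intronic locus in the phosphoinositide kinase gene Pik3c2a, fell by 0.61 ± 0.10 (0.0254), from 1.53 ± 0.22 to 0.659 ± 0.15 FPKM (SD, n = 4 each). Without ordinary-feed library 3 or resveratrol library 1 or 4 no gene was called, and without ordinary-feed library 1 or 2 or resveratrol library 2 or 3 there were 2 calls.

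Metformin on high fat against ordinary feed gave 3 lower genes and no higher one, against 0.297% of all features. Gm15441 fell by 2.56 ± 0.47 (limma adjusted p = 0.0444), at 1.90, 1.51, 3.49 and 3.92 FPKM with metformin, all below the lowest ordinary-feed value of 5.54. Gm29438 fell by 1.15 ± 0.18 and C430039J01Rik by 0.62 ± 0.10 (both with a limma adjusted p of 0.0191). No gene was called without ordinary-feed library 3 or metformin library 2 or 4, and 1 was called without ordinary-feed library 2 or metformin library 1. These comparisons share the ordinary-feed libraries with the high-fat comparison, and in high-fat livers C430039J01Rik stood at 0.588 ± 0.077 FPKM.

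At the edge of the rule, the fourth-highest library value was 1.006 FPKM for Gm28586, 1.008 for Gm13574 and 1.011 for 4930509H03Rik, which were kept. It was 0.9995 for Gm44950, 0.9992 for 6720475M21Rik and 0.9991 for Gm45809, which were not.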

How the data were processed

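Liver RNA of 16 mice in 4 groups of 4 was sequenced, with 1 FPKM file per library. Trizol RNA, a TruSeq kit and a NovaSeq instrument were used per the labels' protocols. The FPKM values were computed and deposited by the authors per transcript, with Bowtie 0.12.2 and Cufflinks 2.1.1 on GRCm38, per the submitters' processing notes. Release of the annotation, read filters and use of strand were not given in the sources used here. Each file lists the same 51024 transcripts. Of 6326 Ensembl transcripts 6306 matched GENCODE M21 by ID, 6243 of them with the same coordinates, and FPKM was summed per gene (159 of the 897 genes have several listed transcripts). Value times length was a whole multiple of a library's step in at least 99.96% of values, within 0.05 of a read, which gave totals and reads per gene.

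The 7413 of 49988 features that reached 1 FPKM in 4 or more libraries entered a limma 3.58.1 model in R 4.3.3 (mean-variance trend, log2(FPKM + 1), 1 fit of 4 groups, 12 residual degrees of freedom). Benjamini-Hochberg adjustment ran over all of them, with calls at an adjusted p under 0.05, after the fit was checked on simulated data. Sequence identity came from BLAST 2.17.0, positions from GENCODE M21. Replicates were numbered in sample order. Genes named were, per main comparison, up to 8 called genes in each direction with the largest change, groups that do not overlap and a mean of at least 1 FPKM in the higher group (up to 4 in the other comparisons), the 10 most abundant genes and the 3 of each biotype with at least 10 members, the called and the 4 most abundant genes of each list, and those at the edge of the rule. Some genes that this rule names are not reported here. The genes and lists were chosen with earlier results of these data known. Alternatives were a pseudocount of 0.1, no filter, a filter in 8 libraries, median-ratio scaling, quantile normalization, median-ratio scaling without high-fat library 4, fits of 2 groups, the highest transcript per gene, and leaving out each library.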

Additional observations from a re-analysis of the deposited data

Results flagged for a closer look

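In 22 of 264 groups of 4 libraries, 1 library lay far from the other 3 in a gene named here, with a gap over range above Dixon's 95% critical value. That value flags about 1 in 20 groups when values are normally distributed and groups independent. Here it was applied to FPKM without a log, and the groups share libraries. The 22 flags are therefore not read as an excess. High-fat library 4 was apart in Gm11963 (6.20 FPKM against 2.06 to 2.65), Gm24447 (1371 against 470 to 595), 1810017P11Rik (4.82 against 7.95 to 8.46) and A330023F24Rik (0.411 against 1.84 to 2.01). High-fat library 1 was apart in 2810030D12Rik (1.47 FPKM) and 4632427E13Rik (5.36), library 2 in Adh6-ps1 (30.3) and Malat1 (72.1), and library 3 in Lncpint (8.20). On ordinary feed library 1 was apart in Zfas1 (12.8 FPKM) and Dleu2 (8.79), library 2 in Gm11832 (12.9) and library 4 in Gm38357 (23.7).

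With resveratrol library 1 was apart in Mup-ps8 (3.47 FPKM) and Neat1 (109, against 10.2 to 18.9), library 3 in Gm1821 (98.2), Malat1 (151, against 6.95 to 9.98) and Kcnq1ot1 (1.56, against 0), and library 4 in Gm27216 (4.12). With metformin library 4 was apart in Gm11963 (2.79 FPKM) and Gas5 (21.4), and library 2 in Kcnq1ot1 (1.84, against 0).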

How the results depend on the processing

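The 121 calls between high fat and ordinary feed became 25 without the filter on low values, where more features are tested, 56 when median-ratio scaling was combined with leaving out high-fat library 4, and 56 when only the 2 groups were fitted. Leaving out 1 library gave 63 to 130, the lowest being 63 (ordinary-feed library 2 left out), 68 (ordinary-feed library 3) and 71 (high-fat library 4). The split was 53 higher and 47 lower after median-ratio scaling and 36 and 48 after quantile normalization. The 0 calls of resveratrol against high fat became 1 with a pseudocount of 0.1 and 0 to 4 on leaving out a library (4 without resveratrol library 4), and those of metformin against high fat 0 to 1. Resveratrol against metformin gave 0 under every alternative run. The 4 calls of resveratrol against ordinary feed became 0 without the filter, 2 with 2 groups fitted and 0 to 3 on leaving out a library. The 3 calls of metformin against ordinary feed became 1 without the filter, 6 after median-ratio scaling, 8 after quantile normalization, 0 with 2 groups fitted and 0 to 4 on leaving out a library. Apart from the filter and the fewer samples, the cause was not tested. No called change of a named gene reversed in sign under any alternative run. Of 32 calls of named genes, 20 were lost without the filter, 15 with 2 groups fitted, 7 under quantile normalization and 5 after median-ratio scaling. On leaving out ordinary-feed library 1, 2, 3 or 4, 8, 16, 15 and 14 of the 32 were lost. On leaving out high-fat library 1, 2, 3 or 4, 5, 10, 6 and 9 of the 25 that use that group were lost. Genes under 20 reads per library on average, 180 of the 897, limit what can be seen. No paired analysis was possible because the replicate numbers only follow sample order.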

Other observations

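Of the 897 genes, 30 are listed at 0 FPKM in at least 1 library, and 4 of these average over 100 reads per library, so their zeros stand beside high values. Kcnq1ot1, the long imprinted RNA that silences its neighbours on the paternal chromosome, is listed at 0 in 10 of 16 libraries and holds 1057 to 5997 reads in the other 6. Scarna10, a Cajal-body RNA, is at 0 in 10 libraries and at 27 to 600 reads in the other 6. Scarna13 is at 0 in 2 libraries and at 6 reads in another, against 121 to 285 elsewhere. 9430037G07Rik is at 0 in 1 library and at 21 to 525 reads in the others. An exact 0 of this kind can be a failed estimate, and no group mean of these genes is read as a level.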
